A study of Homo sapiens with 2 samples.

Results

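The kinesin motor family was compared between HSC-3 cells cultured on Myogel and on plastic. The members were taken by gene symbol, as the genes named KIF with a number and, for most, a letter, and each probe set had to match a single gene. In this way 80 of 54613 probe sets and 38 of 19775 genes were found. They were divided by function into 12 mitotic kinesins, 13 transport kinesins and 13 others with roles in cilia, centrioles, signaling or microtubule dynamics. KIF4B, a mitotic kinesin and close copy of KIF4A, had no probe set of its own, so that the KIF4A value may hold signal of both.

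The HSC-3 line was established from an aggressive squamous cell carcinoma of the human tongue. On both surfaces the cells carried RFP, a red fluorescent label. The lentivirus used for the labelling held a control sequence that codes for nothing, and puromycin was used to keep transduced cells. Myogel is a gel extracted from human uterine leiomyoma, a benign smooth muscle tumor, and the other surface was uncoated plastic of a 6-well plate. For each surface, 90000 cells were seeded, RNA of 3 wells was pooled the next day, and the pool was hybridised to 1 Affymetrix array. There are thus 2 arrays in all and no replicate check, and no p-value is given. The treatment text of the Myogel sample speaks of uncoated plates, which its title, its source and the methods of the study contradict.

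Kinesins are motor proteins that burn ATP to move along microtubules or to take them apart at their ends. Mitotic kinesins build the spindle, move chromosomes and complete cell division, and most of their genes are switched on in G2 phase and silent in resting cells. Transport kinesins carry vesicles, mitochondria and protein complexes, most of them toward the cell periphery, and are used throughout the cell cycle. Carcinoma cells in culture divide constantly and use both kinds.

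The promoters of the mitotic and the transport kinesins differed in their motifs, which the arrays and the choice of members did not use. Many genes of G2 and mitosis hold a CHR element (cell cycle genes homology region, TTTGAA), through which the DREAM and MuvB complexes silence and activate them, next to boxes with the letters CCAAT, which bind NF-Y. RefSeq windows of 300 bases, with 250 before and 50 from the start of transcription onward (build GRCh38.p14), were at hand for 32 of the 38 genes, and both strands were searched. TTTGAA was found in 8 of 12 mitotic kinesin genes, 1 of 11 transport kinesin genes and 0 of 9 other kinesin genes, against 18.2% of all 27305 genes with a window. CCAAT was found in 9 mitotic, 4 transport and 3 other kinesin genes, against 39.7% of all genes. Both motifs stood in 7 mitotic kinesin genes and 1 transport kinesin gene, against 7.26% of all genes, while TTTCCCGC, a motif of E2F factors, stood in KIF25 alone among the kinesins and in 1.98% of all genes. Only these exact letters were searched, so that variants of the motifs were not counted. A match is a description of letters, not a bound site.

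The stretch from 150 bases before to the first 50 bases of the transcript is shown for 4 mitotic kinesins with both motifs, for KIF20A with CCAAT only, for the transport kinesins KIF5B and KIF1C, and for KIF24, which had the highest FC of the family. They were chosen after the matches had been seen. Capitals mark TTTGAA and CCAAT on either strand, so that TTCAAA and ATTGG are their reverse complements.
KIF11: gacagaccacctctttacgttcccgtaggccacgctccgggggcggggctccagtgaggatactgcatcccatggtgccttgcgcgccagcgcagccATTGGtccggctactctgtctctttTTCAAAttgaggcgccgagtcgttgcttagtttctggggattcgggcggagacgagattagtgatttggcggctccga
KIF14: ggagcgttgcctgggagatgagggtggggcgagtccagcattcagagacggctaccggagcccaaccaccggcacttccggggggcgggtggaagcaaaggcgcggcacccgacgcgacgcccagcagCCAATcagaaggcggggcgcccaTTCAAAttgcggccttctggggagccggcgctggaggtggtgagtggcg
KIF18A: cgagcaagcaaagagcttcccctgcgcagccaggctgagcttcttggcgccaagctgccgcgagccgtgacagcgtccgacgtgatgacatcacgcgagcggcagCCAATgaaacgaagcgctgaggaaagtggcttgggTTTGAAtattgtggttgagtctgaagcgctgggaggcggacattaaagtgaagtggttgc
KIF23: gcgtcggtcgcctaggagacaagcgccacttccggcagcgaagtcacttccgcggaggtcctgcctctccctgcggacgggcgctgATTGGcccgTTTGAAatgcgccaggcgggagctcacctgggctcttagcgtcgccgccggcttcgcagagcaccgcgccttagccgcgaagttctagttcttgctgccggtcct
KIF20A: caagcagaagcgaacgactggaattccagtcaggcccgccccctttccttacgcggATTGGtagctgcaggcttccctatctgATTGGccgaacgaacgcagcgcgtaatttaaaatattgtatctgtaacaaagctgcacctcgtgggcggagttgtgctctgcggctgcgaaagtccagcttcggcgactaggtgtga
KIF5B: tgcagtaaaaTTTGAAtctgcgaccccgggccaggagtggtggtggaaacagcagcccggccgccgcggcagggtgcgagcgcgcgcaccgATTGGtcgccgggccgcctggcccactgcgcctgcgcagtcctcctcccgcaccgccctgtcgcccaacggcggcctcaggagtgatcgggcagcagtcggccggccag
KIF1C: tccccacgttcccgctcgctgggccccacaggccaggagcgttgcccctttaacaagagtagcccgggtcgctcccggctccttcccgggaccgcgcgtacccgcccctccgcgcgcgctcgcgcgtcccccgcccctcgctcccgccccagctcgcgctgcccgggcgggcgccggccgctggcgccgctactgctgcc
KIF24: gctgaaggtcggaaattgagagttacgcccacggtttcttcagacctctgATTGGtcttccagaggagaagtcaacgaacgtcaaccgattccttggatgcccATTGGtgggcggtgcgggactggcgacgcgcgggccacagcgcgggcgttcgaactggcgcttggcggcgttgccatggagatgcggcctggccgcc

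These stretches lie at chr10:92592980-92593179 on the plus strand for KIF11, chr1:200620702-200620901 on the minus strand for KIF14, chr11:28108107-28108306 on the minus strand for KIF18A, chr15:69414199-69414398 on the plus strand for KIF23, chr5:138178962-138179161 on the plus strand for KIF20A, chr10:32056376-32056575 on the minus strand for KIF5B, chr17:4997800-4997999 on the plus strand for KIF1C and chr9:34329219-34329418 on the minus strand for KIF24. With the first transcribed base counted as 1, the first letter of the CHR element stood at -28 in KIF11, 2 in KIF14, -10 in KIF18A and -55 in KIF23. In 6 of the 7 mitotic kinesin genes with both motifs the CCAAT box nearest to it lay upstream by 35 bases or less, and in KIF20B, with a pair of CHR elements at 25 and 31, the nearest box was at -98. In KIF5B the CHR element at -140 lay upstream of the CCAAT box at -59, which is the other order. KIF1C had neither motif, and KIF24 had CCAAT boxes at -154, -100 and -47.

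**Figure D1:**
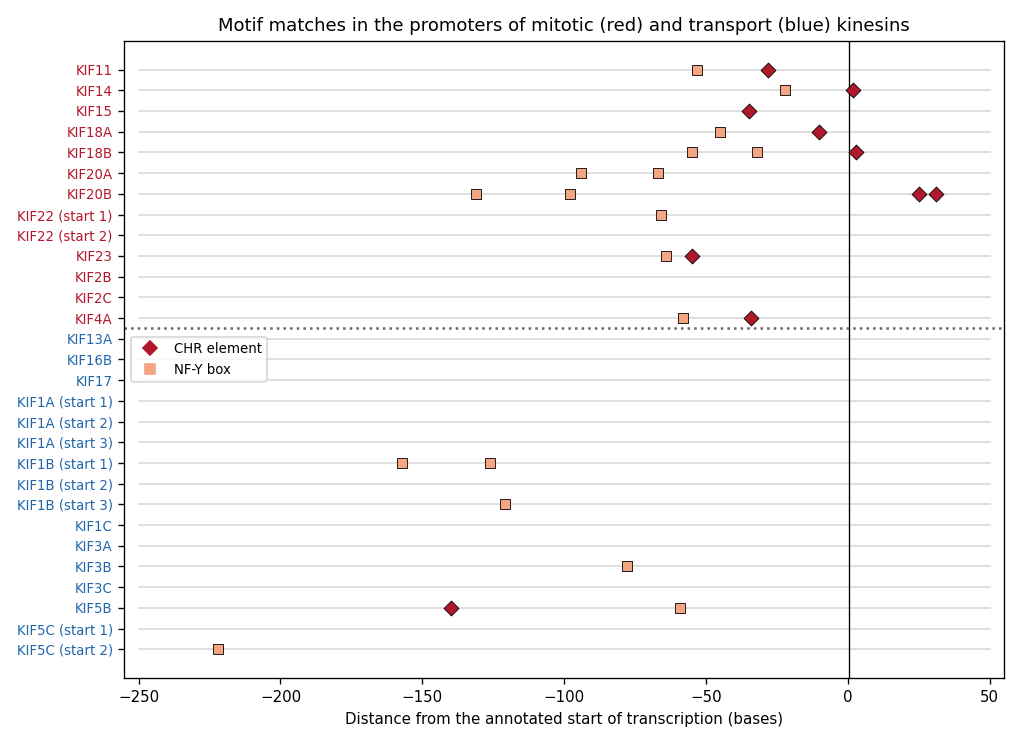
Matches of the CHR element (diamonds) and of the NF-Y box (squares) by distance in bases from the annotated start of transcription (x axis) for each promoter window of the mitotic (red names) and transport (blue names) kinesins; each grey line is 1 window. CHR elements appear in 8 mitotic kinesin genes and, among transport kinesins, in KIF5B.

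The deposited values are linear intensities made with dChip, with a floor of 1. Their medians were 52.5 on Myogel and 59.7 on plastic over all probe sets, and the floor was held by 4.73% of the probe sets on Myogel and 4.42% on plastic. The fold change (FC) was taken as Myogel over plastic, and a change of FC 1.5 in either direction, the fold that the methods of the study name, was counted with no further criterion. The study listed far fewer genes at this fold, so that the counts here cannot be set against its list. For every gene the probe set of highest mean log2 value was used, and levels are not compared between genes, since probe sets differ in how brightly they report. Beside a log2 FC stands a range, in which 95% of the 1000 probe sets closest to it in mean signal lay, and which describes the spread between the 2 arrays and is not a test. In RNA of whole cultures, fewer cells that express a gene and less of its RNA per cell cannot be told apart.

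Cells on both arrays carried the RNA of squamous epithelium. The 7 measured of 10 listed epithelial markers had values between 1169 and 18224 on Myogel and between 1595 and 18856 on plastic. Since Myogel comes from smooth muscle tissue, markers of other cells were read too. The sum over 8 smooth muscle markers was 1520 on Myogel and 1444 on plastic, and that over 8 fibroblast markers was 829 and 913. A large part came from single genes, with 756 on Myogel and 703 on plastic for ACTA2, and 454 and 431 for COL1A1. In each of the 2 lists 5 genes were higher on Myogel and 3 were lower. DES and MYH11, both in the smooth muscle list, had 63.5 and 174 on Myogel, and 43.0 and 198 on plastic. The 6 endothelial markers summed to 335 on Myogel and 429 on plastic, and 4 measured of 6 blood markers to 312 and 319. The part of such RNA in the kinesin values was not tested.

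Most kinesin genes had similar values on both surfaces. On Myogel, 2 of the 38 genes passed FC 1.5 as higher and 5 as lower, while 31 did not pass it. Over all 19775 genes 9.71% were higher and 17.5% were lower by this rule. The higher genes were KIF24 and KIF5C, and the lower ones were KIF9, KIF6, KIF26A, KIF27 and KIF21B. None of the 12 mitotic kinesins was among them. Of the 7 genes, 5 had a mean signal under 53.8, the median of all probe sets, where 63.2% of all genes passed FC 1.5 in either direction. Of the 32 kinesin genes at or above the median signal, 1 was higher and 1 was lower, against 2.26% and 4.83% of all genes at such signal. At FC 1.2 the family had 6 higher and 8 lower genes, against 18.1% and 30.8% of all genes. The median log2 FC of the family was -0.04, against -0.07 for all genes. It was positive at 0.03 after quantile normalization, after loess centring and with a filter on low signal, and at 0.069 when the median log2 FC of all probe sets was set to 0. The median of all genes in these settings was 0, 0.006, -0.05 and 0.04, in the same order.

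**Figure D2:**
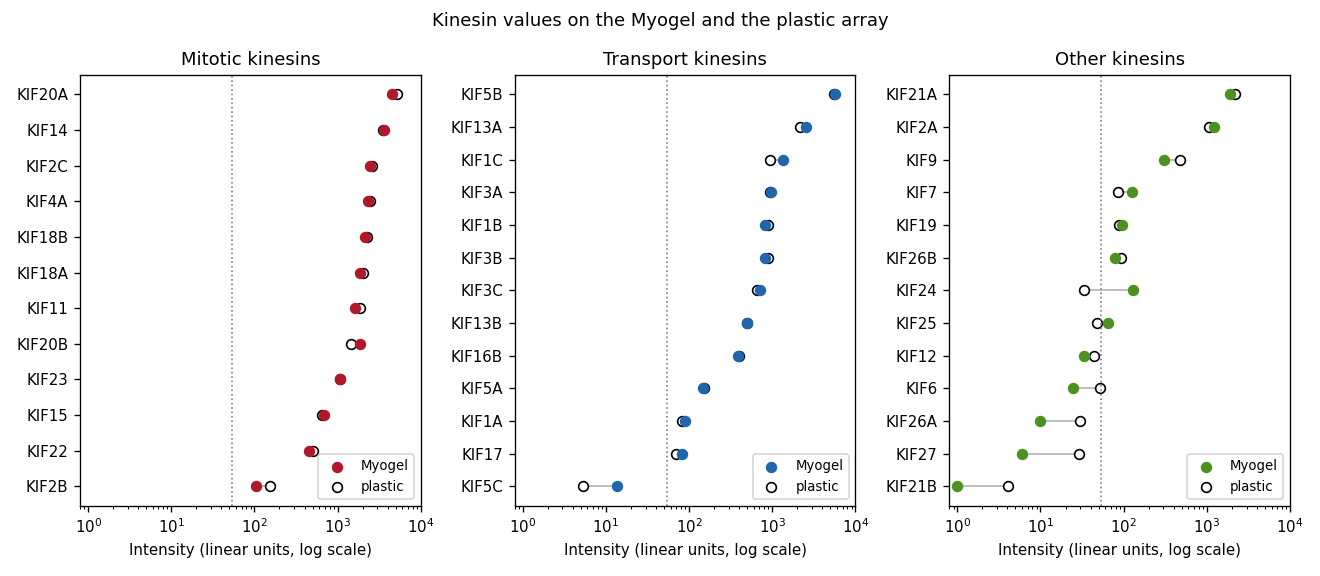
Intensity of each kinesin gene in linear units (x axis, log scale) on the Myogel array (filled points) and on the plastic array (open points), in the panels mitotic, transport and other kinesins; the dotted line marks the median signal of all probe sets at 53.8, and there is 1 array per surface. The points of most genes overlap, while KIF24 is set apart at 129 on Myogel and 33.3 on plastic, and the widest gaps of the other genes are left of the dotted line.

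All 12 mitotic kinesins lay within FC 1.5 and above the median signal. They were lower on Myogel in 8 genes and higher in 4, with log2 FCs between -0.55 and 0.33 and a median of -0.07. Over all genes 58.7% were lower and 40.8% were higher. When the median log2 FC of all probe sets was set to 0, 5 mitotic kinesins were lower and 7 were higher, against 45.3% and 54.7% of all genes. This setting shifts every value up by the same amount. As deposited, the median log2 FC was -0.04 over all genes at or above the median signal and -0.30 over those under it. Lists of bright genes thus tend to lie above 0 under this setting, and the shares of all genes are not matched for signal. The 2 that passed FC 1.2 were KIF20B, which was higher, and KIF2B, which was lower. By comparison, FC 1.2 was passed by 11.1% of all genes at or above the median signal as higher and by 19.3% as lower. None of the 12 was outside the range for its signal. With the mean over all probe sets of a gene, KIF20B passed FC 1.5 as higher and KIF22 as lower, with log2 FCs of 0.63 and -0.85, and KIF23 passed it as lower, at -0.81, when probe sets of the _x_at, _s_at and _a_at kinds were left out. In these 3 genes a dimmer probe set sets the value.

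The motors that push the spindle poles apart were close on both surfaces. KIF11 (Eg5), which slides antiparallel microtubules and is needed for a bipolar spindle, had 1632 on Myogel and 1874 on plastic, a log2 FC of -0.20. KIF15, which acts beside KIF11 in keeping the spindle bipolar, had 688 on Myogel and 651 on plastic. Chromokinesins bind chromosome arms. KIF4A had 2341 on Myogel and 2438 on plastic, and KIF22 (Kid) had 459 and 505. The second probe set of KIF22 had 50.9 on Myogel and 150 on plastic, and its log2 FC of -1.56 was outside its own range of -1.07 to 0.94.

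Motors that shorten or cap microtubules came next. KIF2C (MCAK), a depolymerase that frees wrongly attached chromosomes, had 2447 on Myogel and 2585 on plastic, and its second probe set had 854 and 1051. KIF18A, which damps chromosome movements at the metaphase plate, had 1846 on Myogel and 2035 on plastic. KIF18B, a plus end motor that works with KIF2C on astral microtubules, had 2150 and 2229. These 3 genes were all lower on Myogel, by log2 FCs of -0.08, -0.14 and -0.05, but KIF2C and KIF18B turned to 0.028 and 0.055 when the median log2 FC of all probe sets was set to 0. KIF2B, a relative of KIF2C, had 106 on Myogel and 155 on plastic. Its log2 FC of -0.55 was the lowest of the class and inside the range from -0.92 to 0.70 for its signal.

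The kinesins of the central spindle and cytokinesis went both ways. KIF20A (MKLP2), which brings the chromosomal passenger complex to the midzone, had 4536 on Myogel and 5125 on plastic. KIF23 (MKLP1), a subunit of centralspindlin, had 1077 on Myogel and 1054 on plastic, while its dimmer probe set had 76.8 and 135. KIF14, which acts with PRC1 and citron kinase late in cytokinesis, had 3634 on Myogel and 3494 on plastic, and its second probe set gave 2298 and 2154. KIF20B, a relative of KIF20A with a part in completing abscission, had the highest log2 FC of the class at 0.33, with 1845 on Myogel and 1465 on plastic. Its range was -0.43 to 0.40, and its 2 other probe sets were near the floor and went opposite ways, with 6.29 and 6.28 on Myogel and 13.5 and 1.00 on plastic.

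Transport kinesins were, by the median, slightly higher on Myogel. Of 13 genes 9 were higher and 4 were lower, against 40.8% and 58.7% of all genes, and the median log2 FC was 0.07. With the median log2 FC of all probe sets set to 0, the counts were 11 and 2, against 54.7% and 45.3% of all genes. These shares are not matched for signal, and 12 of the 13 transport genes lay at or above the median signal. The difference of the class medians, mitotic minus transport, was -0.14, and between -0.19 and -0.09 under all alternatives tried. The log2 FCs of the 2 classes overlapped, since the mitotic genes spanned -0.55 to 0.33 and the 12 transport genes with a signal not under the median spanned -0.13 to 0.51. The median of the mitotic class became 0.038 when the median log2 FC of all probe sets was set to 0, and was negative under the other scalings. No test of this difference is possible with 1 array per surface, and members of a class are not replicates.

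**Figure D3:**
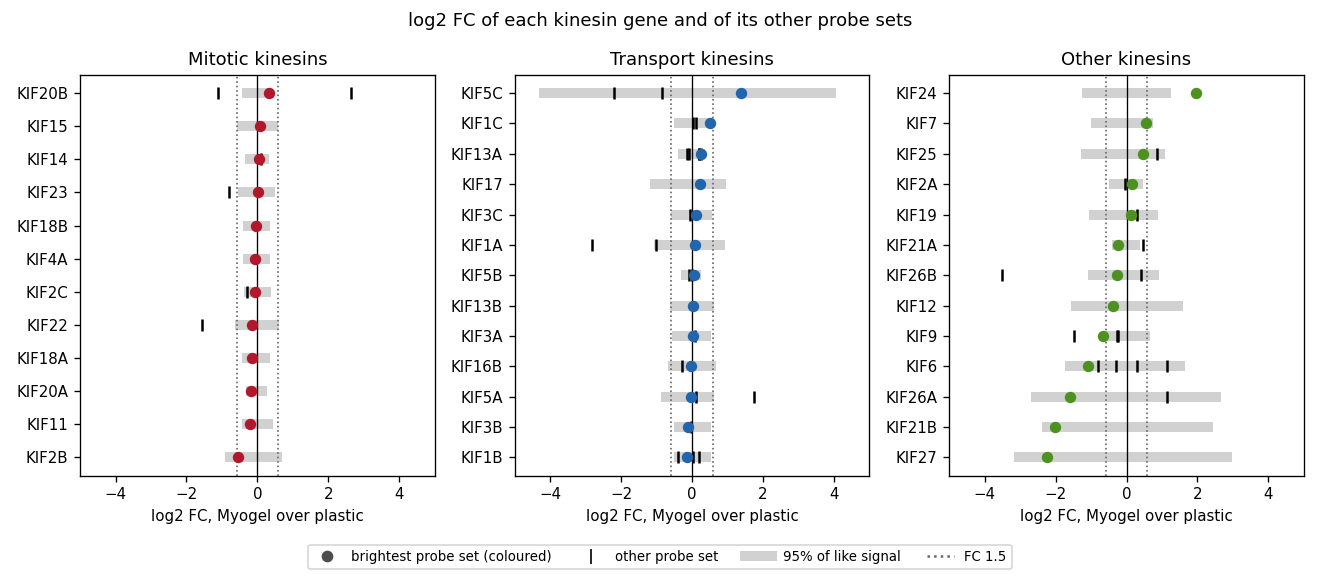
The log2 FC of Myogel over plastic (x axis) for each kinesin gene by its brightest probe set (coloured points) and for its other probe sets (black ticks), in the panels mitotic, transport and other kinesins; grey bars hold 95% of the 1000 probe sets nearest in signal and dotted lines mark FC 1.5. KIF24 at 1.96 and KIF1C at 0.51 lie beyond their grey bars, and the mitotic points run from -0.55 to 0.33.

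Kinesin-1, the conventional cargo motor, was represented by its ubiquitous heavy chain and a pair of neuronal ones. KIF5B, the ubiquitous form, had 5742 on Myogel and 5479 on plastic, and its 2 other probe sets gave 4160 and 921 on Myogel and 4133 and 982 on plastic. The 3 log2 FCs of KIF5B lay between -0.09 and 0.07. KIF5A, a neuronal form, had 146 on Myogel and 150 on plastic, and its second probe set had 105 and 97.1. With the mean over its probe sets KIF5A passed FC 1.5 as higher, at 0.61. Its dimmest probe set, with 17.5 on Myogel and 5.19 on plastic, sets that value. KIF5C, the other neuronal form, was far below the median signal with 13.8 on Myogel and 5.30 on plastic, a log2 FC of 1.38 inside a range from -4.32 to 4.06. Its 2 dimmer probe sets were lower on Myogel, at 1.05 and 1.10, against 4.85 and 1.98 on plastic.

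KIF1C had the largest FC among the transport kinesins not under the median signal. This kinesin-3, which carries dense core vesicles and integrin-containing vesicles, had 1338 on Myogel and 938 on plastic, which is 1.43-fold higher. Its log2 FC of 0.51 was beyond the range from -0.51 to 0.48 for its signal, a range that 3.61% of all genes and 2 of the 38 kinesin genes exceeded. The 2 other probe sets of KIF1C were also higher, but by less, with 294 and 7.70 on Myogel and 273 and 7.47 on plastic. Its brightest probe set is of the _s_at kind, and the log2 FC was 0.11 without such probe sets and 0.22 as the mean over the 3. When the median log2 FC of all probe sets was set to 0, KIF1C passed FC 1.5. KIF1B, a relative that carries mitochondria and synaptic vesicle precursors, had 823 on Myogel and 898 on plastic, and its 4 probe sets ranged from -0.38 to 0.20 on the log2 scale. KIF1A, the neuronal member, had 88.6 on Myogel and 83.2 on plastic, and its 2 other probe sets were at or near the floor and made it pass FC 1.5 as lower with the mean over probe sets, at -1.25, and at -1.02 without the _s_at kind.

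KIF13A, which brings the mannose-6-phosphate receptor and recycling endosomes to the cell surface, was 1.19-fold higher, with 2536 on Myogel and 2132 on plastic. It has 6 probe sets, the most of any kinesin here, and their log2 FCs lay between -0.13 and 0.25. KIF13B had 504 on Myogel and 494 on plastic. KIF16B, a motor of early endosomes, had 393 on Myogel and 402 on plastic.

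Kinesin-2 motors serve both cargo transport and the building of cilia. KIF3A had 972 on Myogel and 953 on plastic, and KIF3B, its partner in the heterotrimer, had 823 and 890. KIF3C, an alternative partner, had 711 on Myogel and 658 on plastic. The second probe sets of KIF3A and KIF3B kept the sign of the first. That of KIF3C, with 175 on Myogel and 182 on plastic, had the opposite sign. KIF17, the homodimeric kinesin-2, had 82.0 on Myogel and 70.3 on plastic.

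The other kinesins held 6 of the 7 genes with FC 1.5 or more. Of the 13 in the class, 5 lay under the median signal, where 63.2% of all genes passed FC 1.5 in either direction. Of the 8 at or above it, 1 was higher and 1 was lower, against 2.26% and 4.83% of all genes at such signal. KIF24, a centriole protein that recruits CP110 and keeps the primary cilium from forming, was 3.89-fold higher, with 129 on Myogel and 33.3 on plastic. Its log2 FC of 1.96 was beyond the range from -1.25 to 1.25 for its signal. It was the highest of the family under each scaling and with an offset of 16 or 50, which lowered it to 1.56 and 1.11. KIF24 rests on 1 probe set, so that no other value of the gene can be set beside it, and its difference was under 100 linear units.

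KIF9, a kinesin of motile cilia and flagella, was the one kinesin that also differed by 100 linear units, which 0.627% of all genes passed as lower and 0.445% as higher. Over any probe set of a gene, KIF9 was again the one kinesin, and 2.02% of all genes passed as lower and 1.37% as higher. It had 305 on Myogel and 479 on plastic, 1.57-fold lower, with a log2 FC of -0.65 just inside the range from -0.68 to 0.67. Its 3 other probe sets had 319, 204 and 99.2 on Myogel, and 387, 239 and 278 on plastic. All 4 probe sets of KIF9 were thus lower on Myogel, and the dimmest, 2.80-fold lower, was outside its own range of -0.86 to 0.65. The 3 brighter ones are of the _x_at kind, which may detect other transcripts, and the annotated locus of the non-coding gene KIF9-AS1 overlaps that of KIF9. When the median log2 FC of all probe sets was set to 0, or with an offset of 50, KIF9 did not pass FC 1.5.

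The other kinesins of this class that passed FC 1.5 were dim. KIF6, of motile cilia, had 24.5 on Myogel and 52.4 on plastic, and its 5 probe sets ran from -1.10 to 1.13 on the log2 scale. KIF26A, an atypical kinesin that does not hydrolyse ATP, had 9.82 on Myogel and 29.9 on plastic, and its second probe set went the other way, with 2.19 on Myogel and the floor on plastic. With the mean over probe sets neither KIF6 nor KIF26A passed FC 1.5, at -0.16 and -0.24, and KIF6 did not pass it either without the _x_at, _s_at and _a_at kinds, at -0.30. KIF27, a relative of the Hedgehog regulator KIF7, had 6.05 on Myogel and 28.9 on plastic. KIF21B, a kinesin of neurons and lymphocytes, had the floor value of 1.00 on Myogel and 4.02 on plastic, so that its FC has no fixed size. The 4 genes lay inside the wide ranges for their signal.

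**Figure D4:**
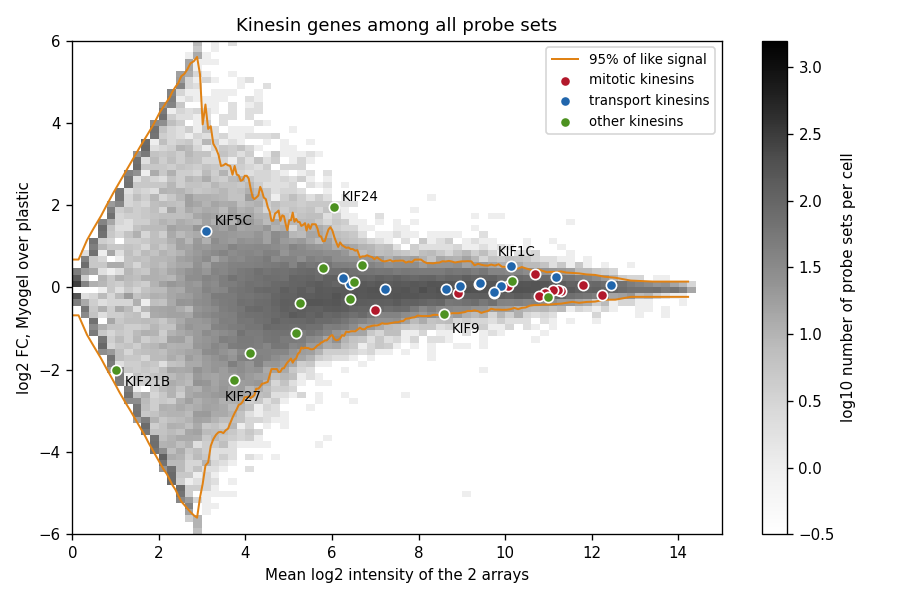
The log2 FC (y axis, Myogel over plastic) against the mean log2 intensity of the 2 arrays (x axis) for all probe sets (grey cells, darker with more probe sets; those beyond 6 are not shown) and for the mitotic (red), transport (blue) and other (green) kinesin genes; orange lines hold 95% of the 1000 probe sets nearest in signal. KIF24 and KIF1C lie above the upper line, KIF9 lies just inside the lower one, and KIF5C, KIF27 and KIF21B lie where the lines are far apart.

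The remaining members of this class were within FC 1.5 by their brightest probe set. KIF21A, which slows microtubule growth at the cell cortex, had 1883 on Myogel and 2212 on plastic. Its second probe set went the other way, with 512 on Myogel and 370 on plastic. KIF2A, a depolymerase of spindle poles and neurites, had 1203 on Myogel and 1075 on plastic. KIF7, which organises the ciliary tip in Hedgehog signaling, had 126 on Myogel and 85.5 on plastic, 1.47-fold higher, and passed FC 1.5 after quantile normalization, loess centring and setting the median log2 FC to 0. KIF25 had 65.3 on Myogel and 47.4 on plastic, and passed FC 1.5 after quantile normalization, after loess centring and with the mean over its probe sets, of which the second had 28.6 on Myogel and 15.6 on plastic. KIF19, a depolymerase of cilium tips, had 95.3 on Myogel and 87.0 on plastic. KIF26B had 77.7 on Myogel and 93.9 on plastic, while its 2 other probe sets had 51.5 and 2.36 on Myogel and 39.0 and 27.1 on plastic, and with the mean over the 3 it passed FC 1.5 as lower, at -1.13. KIF12 was dim, with 33.5 on Myogel and 43.9 on plastic.

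Different probe sets of a gene were compared as a check. Of the 38 kinesin genes, 24 had at least 2 probe sets, and in 15 of these neither of the 2 brightest was under the median signal. Their log2 FCs had the same sign in 9 of the 15 (60.0%), and over all 5953 such genes in 56.6%. The median gap between the 2 was 0.17 on the log2 scale for the kinesins and 0.23 for all genes. For comparison, the median size of the log2 FC was 0.14 over the 32 kinesin genes at or above the median signal.

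Among partners of the mitotic kinesins, in a list of 28 spindle and midzone genes, which also holds KIFC1 and CENPE, 0 passed FC 1.5 in either direction. All 28 were at or above the median signal, where 2.26% of all genes passed as higher and 4.83% as lower. The median log2 FC was -0.02, with 10 genes higher and 18 lower. When the median log2 FC of all probe sets was set to 0, 21 were higher and 7 were lower. The shares of all genes are those given for the mitotic kinesins, and they are not matched for signal. MKI67, a marker of dividing cells, had 1914 on Myogel and 2051 on plastic, and CCNB1, cyclin B1, had 5836 and 6131. The second probe set of MKI67 went the other way, with 1046 on Myogel and 865 on plastic, and its dimmer ones went both ways. The largest difference was that of KIFC1 (HSET), a minus end kinesin that focuses spindle poles, with 804 on Myogel and 590 on plastic, 1.36-fold higher. TPX2, which targets KIF11 and KIF15 to the spindle and was chosen with its values known, had 1971 on Myogel and 2657 on plastic. Its log2 FC of -0.43 was outside the range from -0.41 to 0.38. CENPE, the kinesin of the kinetochore, had 1924 on Myogel and 1997 on plastic.

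Light chains and adaptors link transport kinesins to their cargo. Of 16 measured genes of 19 listed, FC 1.5 was passed by 2 as higher and 1 as lower, against 9.71% and 17.5% of all genes, and against 2.26% and 4.83% at or above the median signal, where 15 of the 16 lay. The median log2 FC was 0.03, which turned to -0.03 when the _x_at, _s_at and _a_at kinds were left out and to -0.04 with the mean over probe sets. The median of all genes was -0.09 and -0.11 in these settings. KLC2, a light chain of kinesin-1, was 1.77-fold higher, with 1615 on Myogel and 913 on plastic. Its log2 FC of 0.82 was beyond the range from -0.53 to 0.48, and it rests on 1 probe set of the _x_at kind. KLC1, another light chain, had 2093 on Myogel and 1709 on plastic, while KLC3 had 303 and 279 and KLC4 had 66.1 and 81.1. The second probe set of KLC1 was lower on Myogel, with 710 on Myogel and 898 on plastic. The dimmer probe sets of KLC1 and of KLC3 went both ways. MAPK8IP2, a scaffold of the JIP family, had 83.9 on Myogel and 36.0 on plastic, and its 2 other probe sets were lower on Myogel. The lower gene, MAPK8IP1, was dim with 17.1 on Myogel and 26.9 on plastic.

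Cytoplasmic dynein and dynactin move cargo the opposite way, toward the cell center. Of 21 measured genes of 23 listed, 0 were higher and 1 was lower. All 21 were at or above the median signal, where these shares were 2.26% and 4.83% of all genes. The median log2 FC was 0.00. The lower one was DYNC1I1, a neuronal intermediate chain, with 49.4 on Myogel and 77.0 on plastic. DYNC1H1, the heavy chain, had 2122 on Myogel and 2168 on plastic by its brightest probe set. Its second probe set had 763 on Myogel and 449 on plastic, a log2 FC of 0.77 outside the range from -0.57 to 0.66. The dimmer probe sets of DYNC1H1 went both ways. Of the 4 kinesins whose names do not follow the pattern, KIFC3, a minus end motor of epithelial junctions, was 1.51-fold higher, with 584 on Myogel and 386 on plastic. Its log2 FC of 0.60 was inside the range from -0.63 to 0.61, and its second, dim probe set had 8.16 on Myogel and 15.4 on plastic. KIFC2 had 47.7 on Myogel and 56.0 on plastic.

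**Figure D5:**
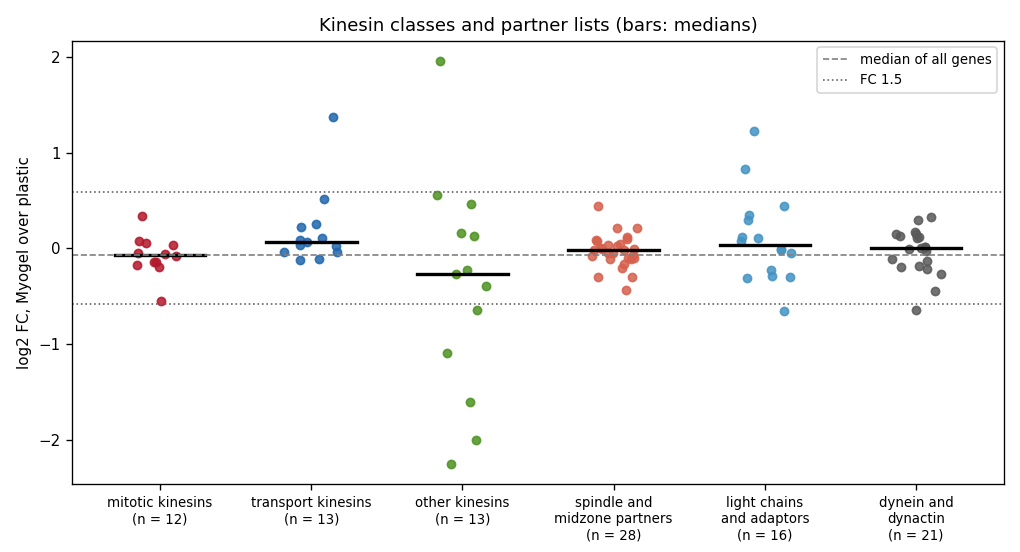
The log2 FC (y axis, Myogel over plastic) of each gene (points) in the 3 kinesin classes and 3 partner lists (x axis, with the number of measured genes), with a black bar at the median of each; the dashed line is the median of all genes at -0.07 and dotted lines mark FC 1.5. The mitotic kinesins and spindle partners all lie between the dotted lines, and the other kinesins have the widest spread.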

How the data were processed

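The authors made the deposited intensity values from scans of Affymetrix U133 Plus 2.0 arrays with the dChip software. Its version, how arrays were scaled to each other and a genome build were not given in the sources used here. Each array held a pool of 3 wells, labelled from 1 µg of total RNA. The 62 control probe sets were left out.

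Probe sets were named from the platform annotation, with symbols updated by Entrez identifier through the RefSeq table of GRCh38.p14. A single gene matched 41091 probe sets, several genes matched 1801, and 11721 are unnamed here. The log2 FC was computed without further scaling for every gene.

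Values are given for all kinesins. In each partner list the genes past FC 1.5 with a signal not under the median were named, or else the gene with the largest change, and further genes named there were chosen after their values were seen. Members and lists were chosen with earlier results of these data known.

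Alternatives were quantile normalization, loess centring (span 0.3), median centring, offsets of 16 and 50, a low signal filter, leaving out _x_at, _s_at and _a_at probe sets, the mean over probe sets, FC 1.2 and FC 2, a difference of 100 units, and other class borders. Computations used pandas 2.3.3, numpy 2.4.6 and, for loess, statsmodels 0.14.6 under Python 3.11.15, with matplotlib 3.10.9 for plots. The log2 FC without scaling and after quantile normalization, loess centring and median centring was tested on simulated data. The other steps were not. The number of arrays limits the precision.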

Additional observations from a re-analysis of the deposited data

How the results depend on the processing

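The count of 2 higher kinesin genes became 4 after quantile normalization, loess centring, median centring or with the mean over probe sets. It became 1 with an offset of 16 or 50 or with the filter on low signal, and 6 at FC 1.2. It became 0 when a difference of 100 linear units was required, also over any probe set. Over all 19775 genes, 1921 were higher as deposited. There were 2615 after quantile normalization, 2634 after loess centring, 2229 after median centring and 2295 with the mean over probe sets. There were 1047 with an offset of 16, 357 with an offset of 50, and 499 of 13409 genes with the filter. The count of 5 lower kinesin genes became 0 with an offset of 50, 1 with the filter and 8 at FC 1.2. It became 1 with the difference of 100 units, also over any probe set. Of all genes, 3469 were lower as deposited, 572 with an offset of 50, and 970 of 13409 with the filter. The shares of all genes at FC 1.2 and with the difference of 100 units are given in the Results. KIF24 remained higher in all 8 alternatives that change scaling, offset, filter or probe sets. Setting the median log2 FC of all probe sets to 0 moves every value up by 0.11, and the median of all genes from -0.07 to 0.04. Under it the medians were 0.038 for mitotic kinesins, 0.17 for transport kinesins, 0.069 for the family, 0.085 for spindle partners, 0.14 for adaptors, 0.11 for dynein and dynactin and 0.10 for the partner lists together. With the mean over probe sets the last 2 were -0.29 and -0.12, against -0.11 for all genes. That of dynein and dynactin was -0.13 once probe sets of the _x_at, _s_at and _a_at kinds were left out, against -0.09 for all genes. The cause of these moves was not tested. The log2 FC of KIF5C turned to -0.56 with the mean over probe sets, and all 3 of its probe sets lie far below the median signal. A single gene was counted as moved if its log2 FC shifted by at least the standard deviation of the 1000 probe sets nearest in signal. By this rule 10 more genes moved with the mean over probe sets, 4 without the probe set kinds and 3 with an offset of 50. Dim genes could change much without being counted. With an offset of 50, KIF26A, KIF5C and KIF6 became -0.42, 0.21 and -0.46 and no longer passed FC 1.5. Of the genes counted as moved, KIF1A, KIF5A, KIF21A and KIF23, none of them past FC 1.5 before, had the opposite sign with the mean over probe sets, at -1.25, 0.61, 0.12 and -0.39. KIF1A and KIF23 had it also without the probe set kinds, at -1.02 and -0.81. Other medians moved by less than 0.1. No paired analysis was possible because each surface has 1 array.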
